A study of Mus musculus with 24 samples.

Results

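Chemokines are small secreted proteins that guide leukocytes along concentration gradients, and the messages described here encode the chemokine ligands of the mouse other than those of the receptor CXCR3 (Cxcl9, Cxcl10 and Cxcl11). Members were taken by gene symbol: every protein-coding gene whose symbol starts with Ccl, Cxcl, Xcl or Cx3cl and a number, with those 3 left out. The rule gave 42 gene identifiers with 37 distinct symbols, among 49315 genes in each table and 21811 protein-coding genes. Of these, 35 lie on chromosomes, and 7 are copies of Ccl19, Ccl21 and Ccl27 genes on unplaced scaffolds, whose reads cannot be separated with certainty from those of near-identical copies. The platelet chemokine genes Pf4 and Ppbp are CXC ligands too, but their symbols do not match the rule.

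Chemokine ligands act on receptors of the G-protein-coupled family, and the receptor decides which cells answer: CXCR2 ligands draw neutrophils, CCR2 ligands draw monocytes, and CCR6, CCR7 and CXCR5 ligands place dendritic cells and lymphocytes in tissue. Many of these genes are switched on by NF-κB after stimulation with TNF, interleukin-1 or bacterial products. Bile duct epithelium is known as a source of chemokines in inflamed portal tracts, where lymphocytes gather around ducts in primary biliary cholangitis. CXCL16 and CX3CL1 are made as membrane-anchored proteins that also hold cells in contact before they are cut free by ADAM proteases.

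RNA was sequenced from bead-captured cholangiocytes, the cells that line the bile ducts inside the liver, in 24 libraries, 3 in each of 8 groups: dnTGFB mice given secretin, untreated dnTGFB mice, WT mice given secretin, and untreated WT mice, of each sex. The dnTGFB strain carries a dominant-negative type II TGF-β receptor and is used as a model of primary biliary cholangitis. In this model the CD4 promoter drives the transgene, so the receptor is altered in T cells. Secretin, a hormone that acts on cholangiocytes, was released from an implanted osmotic pump over 8 weeks, with a daily dose of 4 µg per kg. Mice given secretin were 40 weeks old and untreated WT mice 32 weeks old, so secretin and age cannot be told apart against untreated WT, and for the untreated dnTGFB mice no age is known here. By the description of the series, cells of 6 to 8 mice were pooled for a group and the RNA of that pool was sequenced in triplicate. Every p-value below therefore measures the spread between libraries described as 1 pool and not the spread between mice. Some such libraries were far from alike. Female WT secretin library 1 lay at a mean chi-square per gene of 62.8 from the nearest of its own group. Male dnTGFB secretin libraries 1 and 3 lay at 1.15 from each other. The p-values carry such differences too. In 12 of the 24 libraries the genotype label disagrees with the title (WT secretin libraries carry the transgene label, untreated dnTGFB libraries the wild-type label), and groups were taken from the titles, which match the series' design text.

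Total counts ranged from 1429218 in male dnTGFB library 3 to 104003184 in female WT secretin library 2, and the 42 members took 0.0693 to 0.201% of the counts in male libraries. Libraries of a group did not always resemble each other: 10 of 12 male but 6 of 12 female libraries were nearest, over all genes, to a library of their own group. Male WT library 1 held 42.8% mitochondrial counts, against 9.73 and 9.75% in the other 2, and male dnTGFB library 3 held 11.4%, against 55.1 and 55.03%. These stand apart from their groups, and counts of calls and tests of the members described are given for male libraries with and without them. By mean chi-square per gene, male WT library 1 was nearest to male dnTGFB library 2 (7.27, against 39.9 to the nearest WT library). Male dnTGFB library 3 was nearest to male WT secretin library 1 (47.1, against 78.6 to the nearest dnTGFB library). The fit without both sets 2 dnTGFB against 2 WT libraries and drops the WT library nearest to dnTGFB. Its small adjusted p-values rest on that choice. Female dnTGFB libraries 1 and 2 and female WT secretin libraries 2 and 3 were rich in heart muscle transcripts and held the Y-linked gene Ddx3y at 55.1 and 80.7 CPM (dnTGFB) and 98.5 and 77.9 CPM (WT secretin), against 1.25 to 6.4 CPM in the other 8 female libraries. In the same 4 libraries Xist, expressed from an inactive X, was at 87.9 and 41.8 CPM (dnTGFB) and 19.4 and 39.1 CPM (WT secretin), against 39.2 to 312 CPM in the other 8, so they held transcripts of both sexes. The male WT secretin libraries also held Xist, at 35.1, 37.4 and 30.1 CPM, as did male dnTGFB libraries 1 and 2, at 7.96 and 10.1 CPM. The remaining male libraries held it at 0.166 to 1.45 CPM. Heart muscle transcripts were not confined to libraries labelled female. Their markers summed to between 207 and 15827 CPM in the male dnTGFB libraries, against at most 960 CPM in the other male groups. Their part in the male results was not tested. The 8 cholangiocyte markers (among them Krt19 and Epcam) were all detected in 23 libraries, with Cftr at 0 in male dnTGFB library 3, and their sum ranged from 93.9 CPM in female WT secretin library 2 to 5909.9 CPM in male dnTGFB secretin library 1. Sums of marker genes, here and below, are in CPM of library totals, while levels of single genes are scaled between libraries.

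Promoter sequence is shown for the 2 most abundant neutrophil attractants, for their rarer relative Cxcl3 and for Ccl20, because these members carry the κB motif, the binding site of NF-κB. The RefSeq promoter table (GRCm38.p6, 250 bases before to 50 after each gene's start) had an entry for 25 members. The motif searched, on both strands, was GGG, any 3 bases and TTCC, and it stood in 6 of the 31 windows of these members (19.4%), against 5.56% of all 32851 promoter windows. Each of the 6 belongs to another member. Beside the 4 shown, these were Ccl1 and Ccl9. Capitals mark the motif. Counted from the gene's start, its matches began at -89, -71 and -70 in Cxcl1, at -97, -96 and -78 in Cxcl2, at -73, -72 and -50 in Cxcl3 and at -80 in Ccl20, and matches 1 base apart are the same site read on both strands. All 4 windows are on the plus strand, at chr5:90890995-90891294 for Cxcl1, chr5:90903649-90903948 for Cxcl2, chr5:90785851-90786150 for Cxcl3 and chr1:83116516-83116815 for Ccl20.
Cxcl1: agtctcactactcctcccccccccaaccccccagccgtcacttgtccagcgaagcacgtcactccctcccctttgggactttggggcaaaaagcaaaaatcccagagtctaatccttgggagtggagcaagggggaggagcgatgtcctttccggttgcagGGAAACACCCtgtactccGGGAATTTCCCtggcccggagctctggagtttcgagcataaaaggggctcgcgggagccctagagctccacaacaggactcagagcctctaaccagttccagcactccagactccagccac
Cxcl2: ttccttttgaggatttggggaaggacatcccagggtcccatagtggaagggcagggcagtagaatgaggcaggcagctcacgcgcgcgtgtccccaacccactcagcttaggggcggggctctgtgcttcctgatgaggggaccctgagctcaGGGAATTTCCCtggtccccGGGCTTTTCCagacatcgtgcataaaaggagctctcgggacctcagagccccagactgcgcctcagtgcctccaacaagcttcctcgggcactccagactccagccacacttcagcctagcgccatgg
Cxcl3: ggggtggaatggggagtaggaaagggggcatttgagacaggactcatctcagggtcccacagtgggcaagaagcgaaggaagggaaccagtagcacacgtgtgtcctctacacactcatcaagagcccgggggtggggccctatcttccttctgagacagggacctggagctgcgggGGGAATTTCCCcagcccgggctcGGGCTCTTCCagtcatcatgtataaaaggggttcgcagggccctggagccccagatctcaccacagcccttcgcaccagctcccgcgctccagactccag
Ccl20: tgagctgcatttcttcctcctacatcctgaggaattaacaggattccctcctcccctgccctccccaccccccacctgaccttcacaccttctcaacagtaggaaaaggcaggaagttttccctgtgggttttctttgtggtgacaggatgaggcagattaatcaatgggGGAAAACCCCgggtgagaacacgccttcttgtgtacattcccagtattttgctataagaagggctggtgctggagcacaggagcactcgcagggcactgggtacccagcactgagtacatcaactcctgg
A match is a description of letters in a window and not a measured binding site. The TATA sequence TATAAA was in 9 of the 31 member windows (29%), against 13.6% of all windows, and the AP-1 motif TGANTCA in 5 (16.1%), against 7.81%. The AP-1 windows belong to 4 members, Ccl9, Ccl28, Ccl27a and its near-copy Ccl27b, so they are not independent of each other. The last motif searched, the GAS motif TTCNNNGAA of STAT factors, was in 2 (6.45%), against 8.3% of all windows. No motif of IRF factors was searched.

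Levels are counts relative to library size (CPM), scaled between libraries by edgeR's TMM method, and levels of different genes are compared only per kilobase of gene length (CPM per kb). A mean of at least 1 CPM in some group was reached by 27 members, of at least 10 CPM by 16 and of at least 100 CPM by 5. No count in any library was found for 6 members, all of them Ccl19, Ccl21 or Ccl27 copies, and 5 more had 1 to 10 counts in all. Per kb, Cxcl1 was the highest member in 15 of 24 libraries, Cxcl2 in 4, Cxcl12 and Cxcl16 in 2 each and Cx3cl1 in 1. Cxcl1, Cxcl2, Cxcl12, Cxcl16, Ccl4 and Ccl2 together made up 43.4 to 80.97% of the members' summed CPM per kb in a library, with a median of 65.2%.

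The order of levels per kb differed between groups. In male dnTGFB secretin libraries Cxcl1 averaged 149.9 ± 3.18 CPM per kb, followed by Ccl4 at 140.4 ± 2.7 and Cxcl2 at 113 ± 4.38 (SD, n = 3 libraries, here and below). In male WT secretin libraries Cxcl1 averaged 54.2 ± 2.23 CPM per kb, Cxcl16 39.98 ± 1.33 and Cxcl2 36.7 ± 1.36. In male WT libraries Cxcl1 averaged 197 ± 65.7 CPM per kb, Cxcl16 60.6 ± 5.76 and Cxcl2 57.8 ± 18.9, the last pair within their spread of each other. In male dnTGFB libraries the spread was wider, with Cxcl1 at 227 ± 176 CPM per kb.

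Of the genes that passed a test in males, 8 are placed here; they lie on several chromosomes, given here on GRCm38 as the files have them. Cxcl5 (ENSMUSG00000029371, chr5:90759360-90761624, plus strand) and Cxcl13 (ENSMUSG00000023078, chr5:95956951-95961068, plus strand) are on chromosome 5. Ccl6 (ENSMUSG00000018927, chr11:83587882-83593087, minus strand) and Ccl8 (ENSMUSG00000009185, chr11:82115185-82116799, plus strand) are on chromosome 11, Ccl20 (ENSMUSG00000026166, chr1:83116766-83119167, plus strand) on chromosome 1 and Ccl27a (ENSMUSG00000073888, chr4:41769467-41774247, minus strand) on chromosome 4. Cx3cl1 (ENSMUSG00000031778, chr8:94772009-94782427, plus strand) is on chromosome 8, between Ccl22 and Ccl17, and Cxcl14 (ENSMUSG00000021508, chr13:56288643-56296551, minus strand) on chromosome 13.

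The rarer members are given by their range over the 24 libraries. Ccl12, a mouse CCR2 ligand, ranged from 0 to 1.64 CPM (highest in male dnTGFB secretin library 3). The eosinophil attractants were Ccl11, from 0.16 to 5.51 CPM (highest in male WT secretin library 3), and Ccl24, from 0.587 to 9.002 CPM (highest in male dnTGFB secretin library 3). Of the CCR4 ligands, which attract Th2 and regulatory T cells, Ccl22 ranged from 0.16 to 6.04 CPM (highest in male WT secretin library 2) and Ccl17 from 0 to 1.21 CPM (highest in male WT secretin library 3). Ccl19, a CCR7 ligand that guides dendritic cells and naive T cells, ranged from 0.136 to 2.44 CPM (highest in male WT library 1). Ccl25, the CCR9 ligand of thymus and gut, ranged from 1.46 to 6.92 CPM (highest in male dnTGFB library 1), and Ccl28, a mucosal CCR10 ligand, from 0.0837 to 6.46 CPM (highest in female dnTGFB library 3). Xcl1, made by activated T and NK cells for dendritic cells that carry XCR1, ranged from 0 to 5.37 CPM (highest in male dnTGFB library 2). Ccl1 had 40 counts in all 24 libraries together, Cxcl15 52 and Cxcl17 133.

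**Figure D1:**
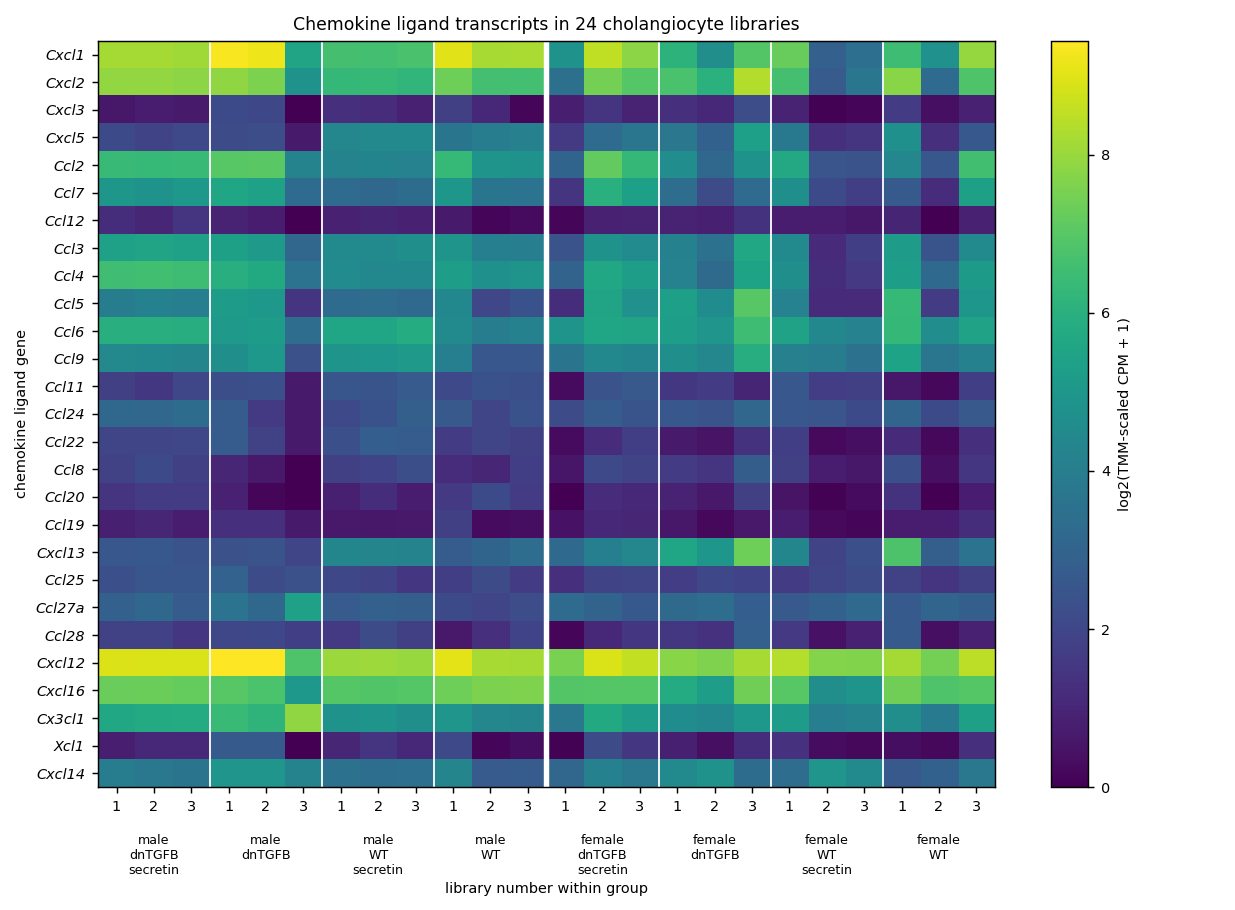
Levels of the 27 members with a mean of at least 1 CPM in some group, as log2(TMM-scaled CPM + 1), in the 24 libraries (columns, numbered within group; male left, female right). Cxcl1, Cxcl2, Cxcl12 and Cxcl16 form the bright rows, male dnTGFB library 3 is dark for nearly all members but bright for Cx3cl1, and female columns differ as much within groups as between them.

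The first comparison asks how chemokine messages in cholangiocytes of untreated dnTGFB mice differ from those of WT mice. In males, 3 of 29 members tested rose (Cx3cl1, Ccl27a and Cxcl14) and 3 fell (Cxcl5, Ccl20 and Cxcl13). Over all 18777 genes tested, 8.55% were called higher and 8.46% lower (17% in all), where called means a Benjamini-Hochberg adjusted p under 0.05 in edgeR's quasi-likelihood test, whatever the fold. The median log2 fold change was 0.51 over the members and 0.01 over all genes. Without male WT library 1 and male dnTGFB library 3, 17 members were called higher and 4 lower, where 22.3% of all genes were called higher and 25.1% lower (47.4% in all). The libraries then left held 55.1 and 55.03% mitochondrial counts in dnTGFB, against 9.73 and 9.75% in WT. All 8 hepatocyte markers were called higher without those 2 libraries and none with all, and they summed to 11966, 11347 and 3317 CPM in dnTGFB libraries 1 to 3, against 8856, 2879 and 2826 CPM in WT. Their part in the result was not tested. No member was called when only the 6 libraries of the 2 groups entered the fit (0% of all genes called), and 3 were called without WT library 2 (6.61% of all genes) or without WT library 3 (6.38%).

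Among the CXCR2 ligands, which attract neutrophils, only Cxcl5 passed the test with all libraries. Cxcl5 is typical of epithelial cells, and 5 members (Cxcl5, Cxcl3, Cxcl15, Cxcl1 and Cxcl2) lie within 146.6 kb of chromosome 5. Cxcl5 was at 3.58, 3.71 and 0.587 CPM in male dnTGFB libraries 1 to 3, against 11.9, 14.99 and 16.4 CPM in WT. All 3 dnTGFB libraries lay below all 3 WT libraries, and the fold change was log2 -2.22 ± 0.32, adjusted p = 0.00407. Cxcl1 was at 645, 584 and 45.2 CPM in dnTGFB, against 511, 296 and 299 CPM in WT. Library 3 of dnTGFB was the lowest of the 6 and the other two were the highest, so the groups overlapped and the difference was not called (log2 0.21 ± 0.64, adjusted p = 0.848). Cxcl2 had the same layout, at 235, 188 and 28.2 CPM in dnTGFB, against 165, 97.3 and 96.8 CPM in WT. With the 2 libraries that stood apart left out, Cxcl1 and Cxcl2 were called higher in dnTGFB, at log2 1.04 ± 0.05, adjusted p = 1.37e-14 and log2 1.12 ± 0.07, adjusted p = 2.61e-11, and Cxcl5 remained lower, at log2 -2.11 ± 0.19, adjusted p = 2.86e-09. Cxcl3 was rare, with 3.35, 3.15 and 0 CPM in dnTGFB, against 2.49, 1.15 and 0.0806 CPM in WT. Neutrophil markers (9 genes, such as S100a8) summed to 259, 242 and 23.1 CPM in dnTGFB, against 199, 38.9 and 36.04 CPM in WT, in CPM of the library total, so Cxcl1, Cxcl2 and neutrophil transcripts were high and low in the same libraries; their part in the result was not tested. Cxcr2 and Mmp8 were at 0 in dnTGFB library 3. In RNA of a whole preparation, fewer cells of a type and less RNA per cell cannot be told apart.

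The monocyte-attracting CCR2 ligands were, like Cxcl1, highest in dnTGFB libraries 1 and 2 and lowest in dnTGFB library 3. Ccl2, the main monocyte attractant, was at 126, 131 and 17.6 CPM in dnTGFB, against 78.4, 28.7 and 27.8 CPM in WT. Ccl7, its neighbour on chromosome 11 (Ccl2 starts at 82035571 and Ccl7 at 82045712), was at 47.2, 41.04 and 8.81 CPM in dnTGFB, against 30.7, 11.7 and 10.96 CPM in WT. The groups therefore overlapped, and neither passed the test (Ccl2: log2 1.05 ± 0.57, adjusted p = 0.215). With those libraries left out, Ccl2 was called higher at log2 2.18 ± 0.07, adjusted p = 3.76e-17 and Ccl7 at log2 1.95 ± 0.13, adjusted p = 9.38e-12. None of the attractants of T cells and macrophages (Ccl3, Ccl4, Ccl5, Ccl6 and Ccl9) passed with all libraries. Ccl5 was at 36.1, 31.8 and 1.76 CPM in dnTGFB, against 20.2, 3.02 and 4.23 CPM in WT. Ccl9 was at 24.9, 31.8 and 4.11 CPM in dnTGFB, against 15.8, 4.94 and 4.83 CPM in WT. All 5 were called higher in dnTGFB without the 2 libraries, from 1.03 for Ccl4 to 3.22 for Ccl5 on the log2 scale. T and NK cell markers (9 genes) summed to 32.1, 40.2 and 9.1 CPM in dnTGFB, against 30.5, 10.98 and 8.55 CPM in WT, again lowest in dnTGFB library 3 among the dnTGFB libraries and highest in WT library 1 among the WT libraries, and their part was not tested. Cd3d and Klrb1c were at 0 in dnTGFB library 3. Kupffer cell and macrophage markers lay wholly lower in dnTGFB, at 129 to 148 CPM, against 287 to 638 CPM in WT. Monocyte and dendritic cell markers did so too, at 15.4 to 36.1 CPM in dnTGFB, against 47.6 to 53.6 CPM in WT. The part of these cells was not tested either.

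Ccl20, the ligand of CCR6 that attracts dendritic cells, B cells and Th17 cells to epithelia, was low throughout and fell in dnTGFB. Its level was 0.808, 0.0926 and 0 CPM in dnTGFB, against 2.02, 3.32 and 2.22 CPM in WT, with no overlap, a fold change of log2 -2.72 ± 0.67, adjusted p = 0.0192, and of log2 -2.71 ± 0.62, adjusted p = 8.88e-04 without the 2 libraries. These levels rest on 8 reads in dnTGFB and 176 reads in WT over 3 libraries each. The adjusted p was 0.0681 without WT library 2 and 0.0506 without WT library 3. Cxcl13, the CXCR5 ligand that gathers B cells into follicles, was at 4.04, 4.35 and 2.94 CPM in dnTGFB, against 5.72, 7.28 and 9.43 CPM in WT, and fell by 0.92 ± 0.23 on the log2 scale (adjusted p = 0.0197; log2 -0.99 ± 0.21, adjusted p = 4.41e-04 in the fit without WT library 1 and dnTGFB library 3). Its adjusted p was 0.0594 without WT library 2 and 0.0861 without WT library 3. B cell markers (6 genes) summed to 83.9, 79.3 and 138 CPM in dnTGFB, against 614, 1773 and 1789 CPM in WT, and all 6 were called lower.

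The membrane-anchored ligands lay on opposite sides of WT. Cx3cl1 (fractalkine), which binds CX3CR1 on monocytes and T cells and is also abundant in neurons, was at 82.3, 70.4 and 232 CPM in dnTGFB, against 29.6, 19.8 and 18.7 CPM in WT. Every dnTGFB library was above every WT library, library 3 by far the most, and the fold change was log2 2.48 ± 0.40, adjusted p = 0.00474. With male WT library 1 and dnTGFB library 3 left out it was log2 1.98 ± 0.10, adjusted p = 5.79e-14. All 8 neuronal markers were called higher in dnTGFB, and they summed to 394, 369 and 5756 CPM in dnTGFB, against 86.6, 141 and 162 CPM in WT, so they moved with Cx3cl1 in library 3 and in libraries 1 and 2, and their part in the result was not tested. Cxcl16, the CXCR6 ligand that holds T and NK cells, was at 127, 107 and 31.7 CPM in dnTGFB, against 163, 189 and 197 CPM in WT. The groups did not overlap, yet the difference was not called with all libraries (log2 -1.03 ± 0.36, adjusted p = 0.0739), and it was called lower without the 2 libraries (log2 -0.73 ± 0.07, adjusted p = 3.56e-09). Over all members, 2 lay wholly above and 5 wholly below the WT libraries, against 12.8% and 19.9% of all genes.

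Ccl27a, a CCR10 ligand of epithelia, was at 11.1, 8.06 and 41.1 CPM in dnTGFB, against 3.33, 2.9 and 3.75 CPM in untreated WT (log2 2.48 ± 0.51, adjusted p = 0.00933), and library 3 was again the highest. Without the 2 libraries the difference was log2 1.51 ± 0.25, adjusted p = 2.43e-05. Cxcl14, a constitutive chemokine of epithelia and fibroblasts, was at 29.1, 29.2 and 17.6 CPM in dnTGFB, against 18.5, 5.62 and 5.72 CPM in WT. WT library 1 lay above dnTGFB library 3, so the groups overlapped, and the difference was called at log2 1.38 ± 0.41, adjusted p = 0.0429, and at log2 2.36 ± 0.17, adjusted p = 2.94e-11 without the 2 libraries. Its adjusted p was between 0.0817 and 0.152 when dnTGFB library 1 or 2 or WT library 2 or 3 was left out, and 0.0635 with no filter on low counts. Cxcl12, the CXCR4 ligand that retains lymphocytes and stem cells, was at 694, 683 and 113 CPM in dnTGFB, against 534, 296 and 289 CPM in WT, and was not called with all libraries (log2 0.42 ± 0.51, adjusted p = 0.59) but was called higher without the 2 (log2 1.23 ± 0.04, adjusted p = 3.33e-18). With all libraries the other members tested, among them the eosinophil attractants Ccl11 and Ccl24 and the CCR4 ligands Ccl17 and Ccl22, were not called. Cholangiocyte markers fell in the same comparison: 7 of 8 were called lower, and they summed to 481, 483 and 696 CPM in dnTGFB, against 1332, 3425 and 3409.9 CPM in WT. Their part in the chemokine results was not tested.

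**Figure D2:**
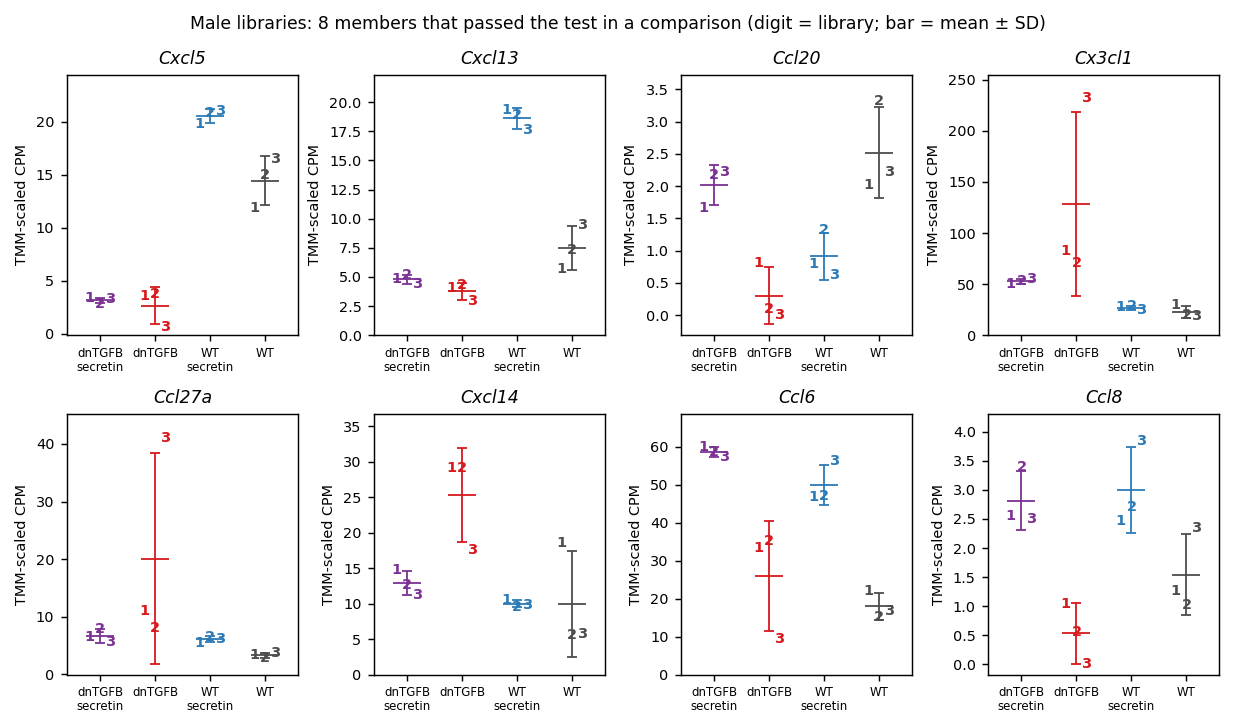
TMM-scaled CPM of 8 members in male libraries (digits are library numbers, bars the mean ± SD, n = 3 libraries). Cxcl5 stays below 4 CPM in both dnTGFB groups and at 11.9 CPM or more in both WT groups, and Cx3cl1 and Ccl27a are highest in dnTGFB library 3.

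The second comparison asks what secretin treatment does in WT mice, and it includes 8 weeks of age. In males, 2 of 29 members rose (Cxcl13 and Ccl6) and none fell, where 3.55% of all genes were called higher and 2.67% lower (6.22% in all). The median log2 fold change was 0.14 over the members and -0.00 over all genes. An unadjusted p under 0.05 was found for 8 of 29 members and for 3912 of all 18777 genes. DESeq2 called 8 members, for which no share of all genes is given. Without WT library 1 (and dnTGFB library 3, which shares the fit), 12 members were called higher and 8 lower, against 19.9% and 20.6% of all genes (40.5% in all). Without those 2 libraries 7 of 8 hepatocyte markers were called higher and 1 lower, with sums of 13961, 14135 and 14649 CPM in WT secretin, against the WT sums above, and their part was not tested. Libraries of both groups did not overlap for 9 members on the higher side and 8 on the lower side, against 22% and 21.4% of all genes.

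Cxcl13 was at 19.4, 18.9 and 17.6 CPM in WT secretin libraries, against 5.72, 7.28 and 9.43 CPM in untreated WT, without overlap. Its fold change was log2 1.32 ± 0.21, adjusted p = 0.00535, and in the fit without the libraries that stood apart it was log2 1.15 ± 0.16, adjusted p = 2.52e-06. The call also held without any 1 of the 6 libraries. Ccl6, a CCR1 ligand made by macrophages and other myeloid cells in the mouse, was at 46.7, 46.9 and 56.1 CPM in WT secretin, against 22.00, 15.2 and 16.8 CPM in untreated WT (log2 1.47 ± 0.33, adjusted p = 0.0252; without the 2 libraries log2 1.64 ± 0.09, adjusted p = 6.34e-13). Its adjusted p was between 0.0817 and 0.124 when any library other than WT library 1 was left out. Ccl9, its neighbour on chromosome 11 and also a mouse CCR1 ligand, was at 28.3, 30.2 and 33.3 CPM in WT secretin, against 15.8, 4.94 and 4.83 CPM in WT, and was not called with all libraries (log2 1.85 ± 0.55, adjusted p = 0.0754) but was without WT library 1 and dnTGFB library 3 (log2 2.64 ± 0.14, adjusted p = 1.03e-13). Monocyte and dendritic cell markers moved with these genes: 6 of 9 were called higher, and they summed to 212, 206 and 203 CPM in WT secretin, against 47.6, 52.1 and 53.6 CPM in WT. Their part in the result was not tested.

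Cxcl1 was at 99.9, 98.5 and 106 CPM in WT secretin, against 511, 296 and 299 CPM in WT. All secretin libraries were below all WT libraries, but the difference was not called (log2 -1.86 ± 0.66, adjusted p = 0.131), and without the 2 libraries the difference was log2 -1.55 ± 0.04, adjusted p = 8.00e-19. Ccl2 showed the same layout, at 17.9, 18.1 and 17.1 CPM in WT secretin, against 78.4, 28.7 and 27.8 CPM in untreated WT (log2 -1.35 ± 0.58, adjusted p = 0.209). Cxcl2 was at 76.5, 78.2 and 72.7 CPM in WT secretin, against 165, 97.3 and 96.8 CPM in WT, a smaller difference that was not called (log2 -0.66 ± 0.53, adjusted p = 0.537). All 3 passed without the 2 libraries, as did Cxcl16, and Ccl2, Cxcl2 and Cxcl16 then stood at -0.68, -0.36 and -0.68 on the log2 scale. Cxcl16 was at 124, 116 and 122 CPM in WT secretin, against 163, 189 and 197 CPM in WT, without overlap and not called with all libraries (log2 -0.60 ± 0.36, adjusted p = 0.382). Ccl20 was at 0.793, 1.32 and 0.63 CPM in WT secretin, against 2.02, 3.32 and 2.22 CPM in WT, also without overlap, not called with all libraries (log2 -1.45 ± 0.52, adjusted p = 0.131) and called lower without the 2 (log2 -1.59 ± 0.42, adjusted p = 0.00385).

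Cxcl5 was at 19.8, 20.8 and 21.05 CPM in WT secretin, against 11.9, 14.99 and 16.4 CPM in WT, on the opposite side from Cxcl1 (log2 0.51 ± 0.28, adjusted p = 0.336), and was called higher without the 2 libraries (log2 0.38 ± 0.14, adjusted p = 0.0271). Cxcl12 was at 258, 264 and 251 CPM in WT secretin, against 534, 296 and 289 CPM in untreated WT (log2 -0.53 ± 0.51, adjusted p = 0.618), and was called lower without the 2 libraries (log2 -0.18 ± 0.03, adjusted p = 9.64e-05). Cx3cl1 (27.7, 28.7 and 24.9 CPM in WT secretin) and Cxcl14 (10.6, 9.57 and 9.81 CPM in WT secretin) overlapped with untreated WT and were not called with all libraries. Both were called higher without the 2, Cx3cl1 at log2 0.50 ± 0.09, adjusted p = 1.15e-04 and Cxcl14 at log2 0.81 ± 0.15, adjusted p = 1.41e-04. The value of Ccl5 hung on WT library 1: it was at 8.81, 9.37 and 8.29 CPM in WT secretin, against 20.2, 3.02 and 4.23 CPM in WT, giving log2 -0.05 ± 0.75, adjusted p = 0.982 with all libraries, and log2 1.28 ± 0.17, adjusted p = 1.03e-06 without the 2 that stood apart. The CXCR3 ligands, which are not members, were at 109.7, 105 and 114 CPM (Cxcl10) in WT secretin, against 1348, 1583 and 1564 CPM in WT, and all 3 of them were called lower.

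**Figure D3:**
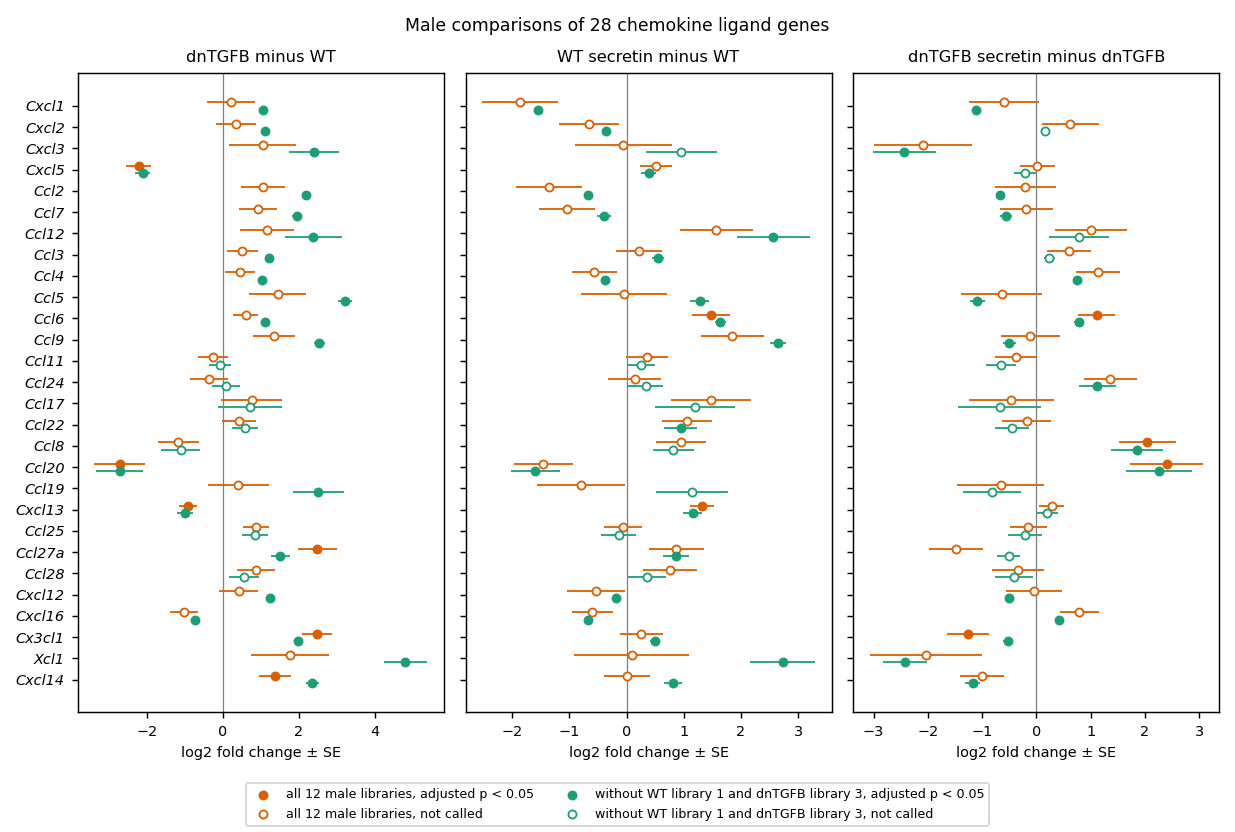
Log2 fold changes ± SE of 28 members in 3 male comparisons, with all 12 libraries (orange) and without WT library 1 and dnTGFB library 3 (green); filled points have an adjusted p under 0.05. Cxcl5, Cxcl13 and Ccl20 keep nearly the same value in both fits, while Ccl2, Ccl5 and Xcl1 lie further from 0 in dnTGFB minus WT without the 2 libraries.

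The third comparison asks what secretin does in dnTGFB mice. In males, 4 of 29 members rose (Ccl8, Ccl20, Ccl6 and Cxcl17) and Cx3cl1 fell, where 10.1% of all genes were called higher and 12.4% lower (22.6% in all). Of these, Cxcl17 entered the test only through libraries given secretin. The median log2 fold change was -0.15 over the members and -0.05 over all genes. No member was called when any 1 of the 3 dnTGFB secretin libraries was left out or when only the 6 libraries of the 2 groups entered the fit (2.9 to 6.14% of all genes called), and 10 were called without dnTGFB library 3 (37.4% of all genes). Without that library and WT library 1, 7 members were called higher and 10 lower, against 23.1% and 23.5% of all genes (46.6% in all). The 3 dnTGFB secretin libraries held 5.5, 5.31 and 5.66% mitochondrial counts, against the 55.1 and 55.03% of the dnTGFB libraries then left. All 8 hepatocyte markers were called lower without those 2 libraries and 4 with all, with sums of 3891, 3889 and 3868 CPM in dnTGFB secretin, against the dnTGFB sums above, and their part was not tested. Libraries did not overlap for 10 members on the higher and 3 on the lower side, against 22.8% and 18.2% of all genes.

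Ccl8, a monocyte and T cell attractant that acts on CCR8 in the mouse, was at 2.55, 3.4 and 2.5 CPM in dnTGFB secretin libraries, against 1.04, 0.556 and 0 CPM in dnTGFB (log2 2.04 ± 0.53, adjusted p = 0.0223). Ccl6 was at 59.98, 58.7 and 57.4 CPM in dnTGFB secretin, against 33.2, 35.3 and 9.4 CPM in dnTGFB (log2 1.11 ± 0.33, adjusted p = 0.0364). For both, all secretin libraries lay above all untreated ones. Without the 2 libraries the differences were log2 1.85 ± 0.47, adjusted p = 0.00252 for Ccl8 and log2 0.78 ± 0.09, adjusted p = 2.54e-07 for Ccl6. Ccl8 was not called without dnTGFB library 2 (adjusted p = 0.0574). All 9 Kupffer cell and macrophage markers were called higher too, and they summed to 957, 973 and 942 CPM in dnTGFB secretin, against 129, 134 and 148 CPM in dnTGFB; their part in the result was not tested. Ccl4, an attractant of T cells and macrophages, was at 92.1, 94.6 and 91.2 CPM in dnTGFB secretin, against 58.9, 51.9 and 11.2 CPM in dnTGFB, without overlap, not called with all libraries (log2 1.14 ± 0.40, adjusted p = 0.0623) and called higher without the 2 (log2 0.75 ± 0.08, adjusted p = 4.24e-08). Ccl5 in dnTGFB secretin lay below dnTGFB libraries 1 and 2 and above library 3, at 15.1, 16.8 and 15.6 CPM in dnTGFB secretin, against 36.1, 31.8 and 1.76 CPM in dnTGFB (log2 -0.64 ± 0.75, adjusted p = 0.557), and was called lower without the 2 libraries (log2 -1.09 ± 0.14, adjusted p = 5.44e-07).

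Ccl20 was at 1.66, 2.17 and 2.21 CPM in dnTGFB secretin, against 0.808, 0.0926 and 0 CPM in dnTGFB, a fold change of log2 2.40 ± 0.67, adjusted p = 0.0281, and of log2 2.25 ± 0.60, adjusted p = 0.00365 without the 2 libraries. Without dnTGFB library 2 alone the adjusted p was 0.0708. All 8 cholangiocyte markers were called higher in the same comparison, and they summed to 5909.9, 5817 and 5859 CPM in dnTGFB secretin, against 481, 483 and 696 CPM in dnTGFB. Their part in the result was not tested. Cxcl5 differed little, with 3.32, 2.82 and 3.25 CPM in dnTGFB secretin, against 3.58, 3.71 and 0.587 CPM in dnTGFB (log2 0.02 ± 0.32, adjusted p = 0.978; without the 2 libraries log2 -0.21 ± 0.20, adjusted p = 0.411), so it stayed below every WT library of either treatment. Cxcl17, a mucosal chemokine, had 32 reads in the 3 dnTGFB secretin libraries and none in the 3 dnTGFB libraries (adjusted p = 0.0412). It passed the filter on low counts only through libraries given secretin, where it was high. Its call is therefore no support for a rise with secretin. The adjusted p was 0.0573 with no filter on low counts, 0.078 without dnTGFB library 1, 0.0899 without dnTGFB library 2 and 0.033 without the 2 libraries that stood apart. Set against a nominal limit of 3 reads over the dnTGFB group, 0.142 CPM, its 0.358 CPM in dnTGFB secretin was 2.52-fold that limit. The ratio takes no account of the spread between libraries.

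Cx3cl1 was at 49.96, 53.01 and 54.99 CPM in dnTGFB secretin, against 82.3, 70.4 and 232 CPM in dnTGFB, without overlap (log2 -1.26 ± 0.38, adjusted p = 0.0367). With male dnTGFB library 3 and WT library 1 left out the difference was log2 -0.53 ± 0.08, adjusted p = 1.68e-05, and with library totals it was log2 -0.86 (adjusted p = 0.236). Neuronal markers summed to 358, 404 and 425 CPM in dnTGFB secretin, against 394, 369 and 5756 CPM in dnTGFB, with 7 of 8 called lower. Those sums are in CPM of library totals and cannot be set directly beside the TMM-scaled Cx3cl1. With TMM scaling, Snap25 was at 123, 148 and 154 CPM in dnTGFB secretin, against 352, 323 and 2403 CPM in dnTGFB. Tubb3 was at 30.4, 34.5 and 33.6 CPM, against 63.7, 54.8 and 384 CPM. The part of neuronal transcripts in the result was not tested. Cxcl14 was at 14.7, 12.7 and 11.3 CPM in dnTGFB secretin, against 29.1, 29.2 and 17.6 CPM in dnTGFB, without overlap, not called with all libraries (log2 -1.003 ± 0.41, adjusted p = 0.0975) and called lower without the 2 (log2 -1.17 ± 0.14, adjusted p = 2.14e-07). Cxcl16 was at 156, 160.4 and 149 CPM in dnTGFB secretin, against 127, 107 and 31.7 CPM in dnTGFB, without overlap, not called with all libraries (log2 0.79 ± 0.36, adjusted p = 0.134) and called higher without the 2 (log2 0.41 ± 0.06, adjusted p = 7.70e-06).

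Cxcl1 and Cxcl2, neighbours on chromosome 5, lay differently against dnTGFB libraries 1 and 2. Cxcl1 was at 284, 285 and 274 CPM in dnTGFB secretin, below dnTGFB libraries 1 and 2 and above library 3, and without the libraries that stood apart it was lower by 1.12 on the log2 scale (adjusted p = 3.38e-16). Cxcl2 was at 241, 237 and 224 CPM in dnTGFB secretin, and neither fit called it (log2 0.62 ± 0.53, adjusted p = 0.406; without the 2 libraries log2 0.15 ± 0.07, adjusted p = 0.0613). Ccl2 was at 83.1, 78.6 and 80.5 CPM in dnTGFB secretin, again between dnTGFB library 3 and the other two (log2 -0.21 ± 0.56, adjusted p = 0.819), and was called lower without the 2 libraries (log2 -0.66 ± 0.06, adjusted p = 7.53e-09). Cxcl12 was at 486, 478 and 483 CPM in dnTGFB secretin. Its difference from dnTGFB was log2 -0.05 ± 0.51, adjusted p = 0.961 with TMM scaling, log2 0.97 (adjusted p = 0.032) with library totals, where the median of all genes moved by 0.79, and log2 -0.51 ± 0.03, adjusted p = 8.31e-12 without the 2 libraries.

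Whether the difference with secretin itself differed between male dnTGFB and WT mice was tested as an interaction, and 3 of 29 members passed, 1 higher and 2 lower, where 8.1% of all genes were higher and 7.51% lower (15.6% in all). Ccl20 passed at log2 3.85 ± 0.84, adjusted p = 0.0149, being above untreated in dnTGFB and below untreated in WT, and this call held without any 1 library. Cxcl13, above untreated in WT and little different in dnTGFB, passed at log2 -1.04 ± 0.31, adjusted p = 0.0434, and Ccl27a at log2 -2.35 ± 0.69, adjusted p = 0.0418. Neither of these 2 was called when any 1 secretin-treated library was left out. With male dnTGFB library 3 and WT library 1 left out, all 3 were still called, at 3.84, -0.96 and -1.38 on the log2 scale, among 5 members higher and 13 lower, where 48.9% of all genes were called. With all libraries the interaction of Cxcl1 was log2 1.26 ± 0.91, adjusted p = 0.353, of Cx3cl1 log2 -1.52 ± 0.53, adjusted p = 0.0736 and of Cxcl16 log2 1.39 ± 0.51, adjusted p = 0.0832. The interactions of Cxcl2 (1.28), Cxcl5 (-0.49), Cxcl12 (0.49), Cxcl14 (-1.01), Ccl2 (1.14) and Ccl5 (-0.59 on the log2 scale) were not called either. Without the 2 libraries each of these 9 but Ccl2 (0.01) was called: Cxcl1 (0.43), Cxcl2 (0.51) and Cxcl16 (1.09) on the higher side, and Cx3cl1 (-1.02), Cxcl5 (-0.60), Cxcl12 (-0.32), Cxcl14 (-1.99) and Ccl5 (-2.37) on the lower side, on the log2 scale.

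The receptors that read these ligands were counted from a list of 23, of which 20 were tested in males. In dnTGFB against WT, none rose and 6 fell (8.55% of all genes were called higher and 8.46% lower), among them Cxcr4, the receptor of Cxcl12, at 17.5, 22.05 and 7.64 CPM in dnTGFB, against 34.5, 56.8 and 48.5 CPM in untreated WT (log2 -1.48 ± 0.28, adjusted p = 0.00699), and Cxcr5, the B cell receptor of Cxcl13, at 5.19, 5.56 and 1.76 CPM in dnTGFB, against 10.7, 19.7 and 19.3 CPM in untreated WT (log2 -1.84 ± 0.35, adjusted p = 0.00731). In WT secretin against WT, 5 rose and 2 fell (3.55% and 2.67% of all genes). Ccr2, the monocyte receptor of Ccl2, was at 36.3, 33.5 and 35.1 CPM in WT secretin, against 5.4, 1.83 and 2.98 CPM in untreated WT (log2 3.36 ± 0.34, adjusted p = 4.90e-04), while Ccl2 lay on the other side. Cx3cr1, the receptor of Cx3cl1, was at 23.8, 20.7 and 23.8 CPM in WT secretin, against 3.24, 2.77 and 3.34 CPM in untreated WT (log2 2.87 ± 0.33, adjusted p = 0.00102). In dnTGFB secretin against dnTGFB, 4 rose and 2 fell (10.1% and 12.4% of all genes), and one of those that fell was Cxcr6, the receptor of Cxcl16, at 0.199, 0.651 and 0.411 CPM in dnTGFB secretin, against 4.73, 3.98 and 0.587 CPM in dnTGFB (log2 -3.04 ± 0.66, adjusted p = 0.0128). For Cxcr6, dnTGFB library 3 lay within the range of the secretin libraries. Medians over the tested receptors were -0.23, 0.60 and 0.12 in the 3 comparisons on the log2 scale. Without male WT library 1 and dnTGFB library 3, 6 receptors were called higher and 7 lower in dnTGFB against WT (22.3% and 25.1% of all genes), 10 higher and 4 lower in WT secretin against WT (19.9% and 20.6%), and 7 higher and 4 lower in dnTGFB secretin against dnTGFB (23.1% and 23.5%).

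Of 24 listed NF-κB feedback and inducer genes, such as Tnf, Il1a and Ltb, 23 were tested; none rose and 2 fell in male dnTGFB against WT, none rose and 1 fell (Il1a, log2 -2.83 ± 0.65, adjusted p = 0.028) in WT secretin against WT, and 3 rose and none fell in dnTGFB secretin against dnTGFB. Tnf was one of those 3 (log2 1.42 ± 0.39, adjusted p = 0.0262). The shares of all genes are those given for the receptors. Without the 2 libraries that stood apart, 12 of the 23 were called higher and 6 lower in dnTGFB against WT, 3 higher and 17 lower in WT secretin against WT, and 8 higher and 11 lower in dnTGFB secretin against dnTGFB. With all libraries the medians were -0.26, -1.002 and 0.18. Among 7 genes that shed or trim chemokines, Adam10, the protease that releases CX3CL1 and CXCL16, fell in dnTGFB against WT (log2 -0.53 ± 0.15, adjusted p = 0.0341) and rose in dnTGFB secretin against dnTGFB (log2 0.60 ± 0.15, adjusted p = 0.0194). Mmp9 and Mmp12 rose in WT secretin against WT (log2 2.83 ± 0.42, adjusted p = 0.00369; log2 2.72 ± 0.41, adjusted p = 0.00424). Without the 2 libraries, 3 of these 7 were called higher and 2 lower, 5 higher and 1 lower, and 1 higher and 3 lower in the 3 comparisons. Pf4 and Ppbp, the platelet CXC ligands, both fell in dnTGFB against WT and in WT secretin against WT, as did all 7 platelet markers, a list that holds both.

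In libraries labelled female, none of 28 members tested passed in any of the 3 comparisons or in the interaction, by edgeR. Over all genes, 0% were called in each of the 3 comparisons and 18% in the interaction (4.03% higher and 13.9% lower). DESeq2 called 0 members in each comparison and 1 in the interaction, Ccl19. No share of all genes is given for DESeq2, so that call is not read as a result. At an unadjusted p under 0.05 there was 1 member in dnTGFB against WT, 1 in WT secretin against WT, 0 in dnTGFB secretin against dnTGFB and 2 in the interaction. Of all 19882 genes, 3859, 5263, 3626 and 7669 were under that limit in the same order. Without the 4 heart-rich libraries edgeR also called none, with 0% of all genes called. Without WT secretin library 1, however, 5 members were called in WT secretin against WT (25.7% of all genes) and 6 in the interaction (38.5%), and without dnTGFB library 3 there were 2 in the interaction (31% of all genes). Without WT secretin library 1, the WT secretin group consists of its 2 heart-rich libraries.

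The female values crossed group lines. In the 4 libraries rich in heart muscle transcripts, members took 0.0234 to 0.0635% of the counts, against 0.041 to 0.216% in the other 8. Cxcl1 was at 27.03, 372 and 222 CPM in dnTGFB secretin libraries 1 to 3, 68.1, 24.5 and 119 CPM in dnTGFB, 152, 6.48 and 9.99 CPM in WT secretin, against 89.8, 26.6 and 243 CPM in WT. Each group had a low library, and the 2 heart-rich WT secretin libraries were the lowest of all 12. Cxcl2 was at 10.3, 174 and 122 CPM in dnTGFB secretin, 106, 63.8 and 324 CPM in dnTGFB, 100.3, 5.63 and 11.9 CPM in WT secretin, against 217, 8.96 and 113 CPM in WT. Its highest libraries, dnTGFB 3 and WT 1, were not those of Cxcl1, which were dnTGFB secretin 2 and WT 3.

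The same pair of libraries led for other members. Cxcl13 was at 8.45, 15.9 and 19.8 CPM in dnTGFB secretin, 45.9, 29.9 and 161 CPM in dnTGFB, 19.3, 2.81 and 3.997 CPM in WT secretin, against 111, 6.24 and 11.1 CPM in WT. Ccl5 was at 1.34, 44.7 and 26.3 CPM in dnTGFB secretin, 39.3, 23.05 and 125 CPM in dnTGFB, 17.3, 1.22 and 1.16 CPM in WT secretin, against 79.6, 2.08 and 30.3 CPM in WT. For both, dnTGFB library 3 and WT library 1 were the 2 highest, although they differ in genotype by title. Monocyte and dendritic cell markers (9 genes) summed to 342, 192 and 1658 CPM in dnTGFB, against 1025, 23.9 and 54.9 CPM in WT, highest in the same 2 libraries, and their part was not tested. Cxcl13 was the only member whose 3 dnTGFB secretin libraries lay below all 3 dnTGFB libraries (9.12% of all genes did so), and it was not called (log2 -2.42 ± 1.14, adjusted p = 0.285). Ccl19 was the only member with all dnTGFB libraries below all WT libraries (11% of all genes did so), at 0.539, 0.152 and 0.57 CPM in dnTGFB, against 0.626, 0.64 and 1.38 CPM in WT (log2 -1.09 ± 0.78, adjusted p = 0.428).

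Ccl2 was at 7.2, 142 and 77.9 CPM in dnTGFB secretin, 23.9, 8.01 and 26.9 CPM in dnTGFB, 50.7, 4.67 and 4.34 CPM in WT secretin, against 19.6, 4.96 and 94.6 CPM in WT, and Ccl7 was again highest and lowest in nearly the same libraries (1.72, 63.3 and 38.8 CPM in dnTGFB secretin, against 5.36, 1.28 and 40.1 CPM in WT). Female WT library 2 and dnTGFB secretin library 1, which lie nearer to each other than to their own groups over all genes, both held low Cxcl1 and Ccl2. Cxcl16 was at 119, 122 and 124 CPM in dnTGFB secretin, 55.6, 38.1 and 165 CPM in dnTGFB, 126, 24.6 and 28.9 CPM in WT secretin, against 166, 114 and 124 CPM in WT, low only in the 4 heart-rich libraries. Cxcl14 ran the other way, at 7.62, 16.7 and 12.6 CPM in dnTGFB secretin, 21.7, 26.8 and 9.02 CPM in dnTGFB, 9.4, 29.5 and 21.7 CPM in WT secretin, against 5.19, 6.56 and 12.6 CPM in WT, and its 4 highest libraries were the heart-rich ones. It had an unadjusted p under 0.05 in dnTGFB against WT (log2 1.24 ± 0.55, adjusted p = 0.254) and in WT secretin against WT (log2 1.31 ± 0.55, adjusted p = 0.168).

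Cxcl5 ranged from 1.41 to 39.6 CPM over the 12 female libraries with a median of 7.77 CPM, Cxcl12 from 176 to 475 CPM with a median of 252 CPM, and Cx3cl1 from 12.7 to 52.7 CPM with a median of 23.7 CPM. Ccl20 ranged from 0 to 2.45 CPM with a median of 0.599 CPM. In dnTGFB against WT, the difference of Cxcl5 was log2 0.85 ± 1.17, adjusted p = 0.705 and that of Ccl20 log2 0.71 ± 1.36, adjusted p = 0.798, against the calls below WT in males. Neither was called in the test of the difference between the sexes.

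**Figure D4:**
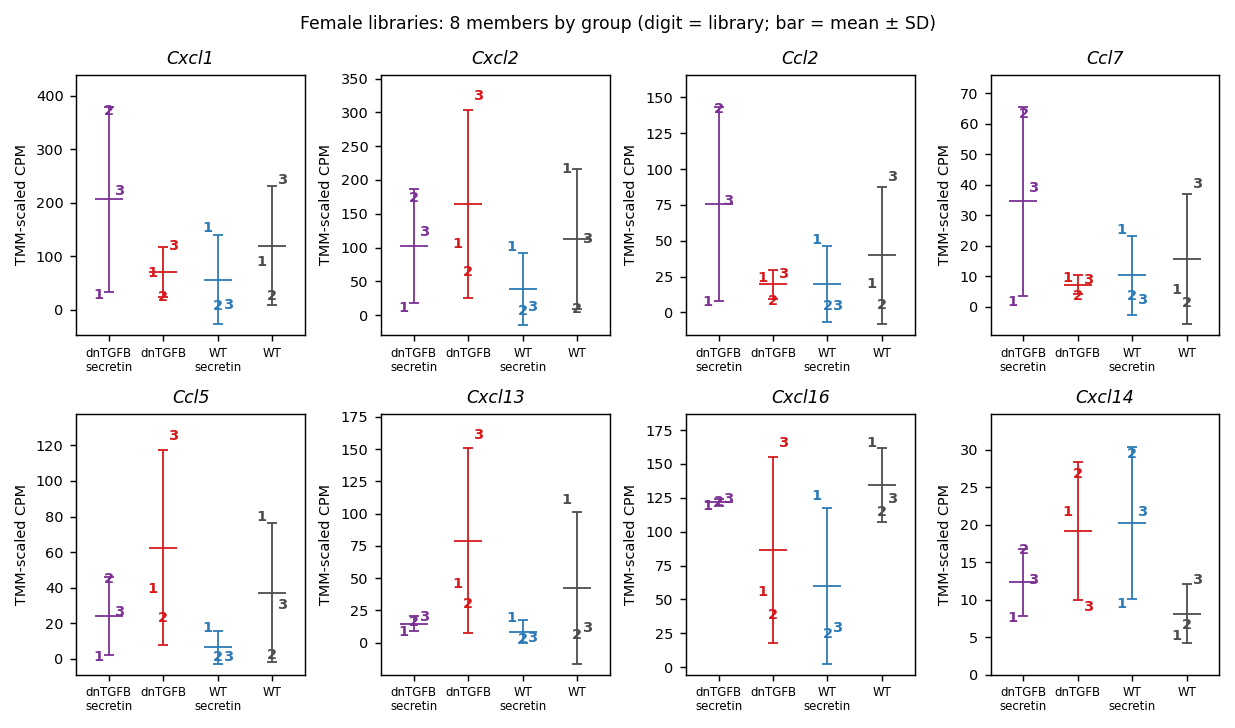
TMM-scaled CPM of 8 members in libraries labelled female (digits are library numbers, bars the mean ± SD, n = 3 libraries). Digits spread widely in many groups but lie close in others, such as dnTGFB secretin for Cxcl16 (119 to 124 CPM). Libraries dnTGFB 3 and WT 1 lead for Cxcl2, Ccl5 and Cxcl13, and dnTGFB 1 and 2 with WT secretin 2 and 3 are high for Cxcl14 and low for Cxcl16.

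Differences between the sexes were tested over all 24 libraries as the male change minus the female change. For dnTGFB against WT, 2 of 29 members passed, both higher (4.45% of all genes were higher and 2.42% lower, 6.86% in all): Cx3cl1 at log2 2.51 ± 0.69, adjusted p = 0.0338 and Ccl27a at log2 2.13 ± 0.60, adjusted p = 0.0369. Cx3cl1 was at 22.96, 20.1 and 31.5 CPM in female dnTGFB libraries and 24.4, 13.3 and 40.7 CPM in female WT, and Ccl27a at 8.63, 9.5 and 6.05 CPM in female dnTGFB and 5.36, 7.52 and 6.18 CPM in female WT. Neither passed without male dnTGFB library 3, when Cx3cl1 stood at log2 1.80 and Ccl27a at log2 1.14 (adjusted p = 0.0843 for Cx3cl1 and 0.0787 for Ccl27a) or without all 6 libraries that stood apart (0.243 and 0.0599). Both also lost the call without male WT library 2 or 3, female WT library 3 or female dnTGFB library 1 or 2, and Ccl27a without male WT library 1 or female WT library 2 as well, with adjusted p-values from 0.0584 to 0.102. Without the 6 libraries Cxcl14 (log2 2.22 ± 0.61, adjusted p = 0.0475) and Cxcl16 (log2 -1.01 ± 0.23, adjusted p = 0.0226) passed instead, where 6.01% of all genes were called. For WT secretin against WT, edgeR called no member (0% of all genes). DESeq2, for which no share of all genes is given, called 3 (Cxcl13, Ccl6 and Ccl9), which are not read as results. An unadjusted p under 0.05 was found in edgeR for 3 members and for 4537 of all 20222 genes. Without the 6 libraries edgeR called Ccl9 (log2 3.27 ± 0.74, adjusted p = 0.0438; 1.82% of all genes). For dnTGFB secretin against dnTGFB, edgeR called no member (7.75% of all genes, 2.44% higher and 5.32% lower). DESeq2, again with no share of all genes given, called 1 (Ccl24). Here 7 members and 5387 of all 20222 genes had an unadjusted p under 0.05 in edgeR.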

How the data were processed

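Each of the 24 files holds whole-number read counts per Ensembl gene, with exon coordinates and gene length, as the authors deposited them; per the labels' protocols, poly(A) RNA was sequenced, while no source used here names the aligner, the counting tool or the strand setting, so reads of overlapping and antisense genes may not be separable. Gene coordinates in the files match GRCm38, and symbols and biotypes came from a GENCODE annotation of that build.

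Groups were taken from the sample titles. Genes passing edgeR's expression filter (edgeR 4.0.16, R 4.3.3) were scaled by TMM and fitted with the quasi-likelihood model, 1 fit for the 12 male libraries, 1 for the 12 female ones and 1 for all 24 (differences between sexes), on all genes, with Benjamini-Hochberg adjustment over all genes. Levels are TMM-scaled CPM computed from the deposited counts. The fitting script was tested on simulated data. Tried as alternatives were DESeq2 1.42.0, other scalings, no filter, a replicate block, only the libraries compared, each library left out, and the libraries that stood apart left out. Nearest libraries were found after thinning to 1400000 counts. Marker sums are in CPM of library totals.

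Members, gene lists and alternatives were chosen with earlier results of these data known. Named in each comparison were members with an adjusted p under 0.05 (up to 8 in each direction) and 10 members chosen for their roles; of other lists, up to 4 genes with the smallest adjusted p. Further genes, among them Ccl4, Ccl7 and Ccl9, were named after their values were seen.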

Additional observations from a re-analysis of the deposited data

Results flagged for a closer look

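In 5 cases a member's change differed between 2 groups under the same contrast, by a test of the difference itself. In males, the secretin difference in dnTGFB minus that in WT was 3.85 for Ccl20, -2.35 for Ccl27a and -1.04 for Cxcl13 on the log2 scale. Ccl20 passed under each alternative run, while Ccl27a and Cxcl13 lost the call under several, among them leaving out any 1 dnTGFB secretin library. Between the sexes, the dnTGFB minus WT difference in males minus that in females was 2.13 for Ccl27a and 2.51 for Cx3cl1, and neither passed without male dnTGFB library 3 (1.14 and 1.80) or without any of several other single libraries.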

How the results depend on the processing

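The count of members called depended mostly on libraries. Shares of all genes called stand above for the main fits, the fits without the libraries that stood apart and a few others. For DESeq2, library totals, no filter, the replicate block and the remaining fits no such share is given. Those counts are therefore not read as results about the members. In male dnTGFB against WT it was 6, but 0 with only the libraries of the groups compared, 21 without the 2 male libraries that stood apart, and 3 to 17 when 1 library was left out. In male WT secretin against WT it was 2, but 8 with DESeq2, 9 with only those libraries, 20 without the 2 that stood apart, and 1 to 4 with 1 left out. In male dnTGFB secretin against dnTGFB it was 5, but 8 with DESeq2, 13 with library totals, 0 with only those libraries, 17 without the 2 that stood apart, and 0 to 10 with 1 left out. The male interaction gave 3 calls, but 6 with DESeq2, 8 with library totals, 18 without the 2 that stood apart, and 1 to 11 with 1 left out. Female WT secretin against WT gave 0 to 5 with 1 left out, and the female interaction 1 with DESeq2 and 0 to 6 with 1 left out. The sex difference of dnTGFB against WT gave 2, but 0 with library totals or with no filter, and 0 to 4 with 1 left out. That of WT secretin against WT gave 3 with DESeq2, 1 without the 6 libraries that stood apart and 0 to 5 with 1 left out, and that of dnTGFB secretin against dnTGFB 1 with DESeq2 and 0 to 1 with 1 left out.

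Where the main or the alternative fit called the member, direction reversed in 3 cases. These were Ccl5 in male WT secretin against WT (1.28 without the 2 that stood apart) and Cxcl12 in male dnTGFB secretin against dnTGFB (0.97 with library totals) and in the interaction (-0.32 without the 2). Where neither fit called the member, the sign changed by at least 1 SE more often. In males this was so in 8 cases for dnTGFB against WT and 5 for WT secretin against WT. It was so in 13 cases for dnTGFB secretin against dnTGFB and 8 for the interaction. Female and sex comparisons held further cases. Library totals moved the median of all genes by -0.45, 0.19 and 0.79 in the 3 male comparisons (dnTGFB against WT, WT secretin against WT, dnTGFB secretin against dnTGFB). The cause of these changes was not tested.

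Replicate numbers do not pair the libraries: same-numbered male dnTGFB and WT libraries correlated at 0.25, -0.19 and 0.25 in their deviations from group means. With the replicate block, 1 member was called in male dnTGFB secretin against dnTGFB, 1 in the male interaction and 0 in the sex difference of dnTGFB against WT, and the other counts of calls stayed within 1.5 times.

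Libraries described as 1 pool carry no spread between mice, and in some groups they were far from alike. Male dnTGFB library 3, with 1429218 counts, limits what can be seen of rare members such as Ccl20 and Xcl1, and 0 reads there do not show absence.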
